A study of Mus musculus with 7 samples.

Results

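Cohesin without CTCF in intergenic DNA of the mouse liver is described here, as 5859 peaks of the cohesin subunit Rad21. A Rad21 peak was counted when it shared no base with any CTCF peak, lay on chromosomes 1 to 19, and had its summit outside every protein-coding gene and over 1 kb (1000 bp) from every protein-coding transcription start. The members were therefore selected on measured binding (a Rad21 peak called, no CTCF peak called over it) and on position, and the lack of an overlapping CTCF peak is no finding. They made up 8.87% of the 66091 autosomal Rad21 peaks and 38.8% (95% Wilson interval 38.0 to 39.5) of the 15118 autosomal peaks without CTCF, the cohesin-non-CTCF (CNC) peaks. The other CNC peaks lay in gene bodies (7387) or within 1 kb of a start (1872, promoter CNC), and 19075 intergenic Rad21 peaks overlapped CTCF (co-bound).

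Cohesin is a ring-shaped complex that holds DNA strands together. It is loaded onto chromatin, moves along it and extrudes loops until it meets CTCF, a zinc-finger protein that binds a long, oriented motif. Cohesin is also found away from CTCF at active enhancers and promoters, where in liver it lies with transcription factors such as the C/EBP, HNF4, FOXA and HNF1 proteins that keep hepatocytes differentiated.

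Chromatin of whole liver nuclei from male Crl:CD1(ICR) mice of 8 weeks, an outbred stock with no added treatment or transgene, was immunoprecipitated with an antibody to Rad21 (3 libraries) or to CTCF (4 libraries) and sequenced. The submitters deposited 1 peak list per factor, made from merged reads, so there is no value per liver and no spread between livers for any number below. All differences between sets of peaks are differences within these pooled lists, and intervals cover counting error only. Liver nuclei come from hepatocytes and from other cells, and a site bound in few cells cannot be told apart from weak binding in all of them.

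The sequences below show what lies under the summits of strong members. The 4 that open the list are the members with the highest Rad21 score that hold, within 30 bp of the summit, a word of 7 to 9 letters typical for C/EBP, HNF4, FOXA or HNF1. They are followed by the strongest member of all, which held none of the 16 words searched and no CTCF match, by the strongest member with 3 or more of 6 hepatocyte words, and by the strongest member with the 8-base word that had, among words in at least 1% of members there, the highest ratio to the grid of intergenic windows described below on odd-numbered autosomes, though not on even-numbered ones. Each run is the + strand of build mm9 (assembly NCBIM37), 5′ to 3′, with 50 bases on each side of the summit (100 for the member with several words), and capitals mark only the words by which each member was chosen, on either strand, so that the C/EBP match in the last window and the NF-Y match in the window with several words are in lower case.
C/EBP member, Car1: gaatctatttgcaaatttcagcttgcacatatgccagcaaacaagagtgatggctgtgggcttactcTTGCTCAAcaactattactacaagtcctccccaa
HNF4 member, Klf12: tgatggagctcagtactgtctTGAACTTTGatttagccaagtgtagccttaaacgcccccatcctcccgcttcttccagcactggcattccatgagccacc
FOXA member, Zfp36l2: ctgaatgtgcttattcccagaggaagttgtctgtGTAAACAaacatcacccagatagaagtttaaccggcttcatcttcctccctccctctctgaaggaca
HNF1 member, Cebpa: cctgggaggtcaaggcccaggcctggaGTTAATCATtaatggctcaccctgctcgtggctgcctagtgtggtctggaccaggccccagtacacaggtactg
Member without a word, Bbs10: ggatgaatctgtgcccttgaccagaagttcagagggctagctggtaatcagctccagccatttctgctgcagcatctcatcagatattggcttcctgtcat
Member with several words, Larp1: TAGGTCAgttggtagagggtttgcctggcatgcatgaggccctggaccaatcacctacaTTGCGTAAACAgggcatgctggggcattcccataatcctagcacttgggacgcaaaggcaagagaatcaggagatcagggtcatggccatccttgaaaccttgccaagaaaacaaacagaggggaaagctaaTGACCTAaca
Member with the leading 8-base word, Gm1968: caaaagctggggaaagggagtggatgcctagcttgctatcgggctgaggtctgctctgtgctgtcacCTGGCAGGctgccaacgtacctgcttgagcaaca

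All 7 lay between genes, and each is named by the protein-coding gene with the nearest start. The C/EBP window was chr3:14755904-14756004, 22469 bp downstream of the start of Car1, and its peak had a score of 510. The HNF4 window was chr14:100627558-100627658, 78593 bp upstream of Klf12, with a score of 312. The FOXA window was chr17:84582728-84582828, 3699 bp downstream of the start of Zfp36l2, with a score of 314. The 3 windows thus sat at very different distances from a gene.

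The HNF1 window was chr7:35929043-35929143, 24781 bp downstream of the start of Cebpa, which itself encodes the liver factor C/EBPα, and its peak had a score of 374. The window without a word was chr10:110766548-110766648, 30863 bp downstream of the start of Bbs10, with a score of 687. The window with several words was chr11:57769661-57769861, 52805 bp upstream of Larp1, with a score of 317, and its C/EBP and FOXA matches overlapped. The last window was chr16:29973450-29973550, 11107 bp upstream of Gm1968, with a score of 522. The nearest CTCF summit was between 2331 and 29728 bp from each of these summits.

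The class was checked against the CTCF motif, learnt here as a matrix of 19 positions from 3038 TAD anchors (CTCF sites that the authors placed at borders of topologically associating domains) on odd-numbered autosomes, with a limit passed by 1% of intergenic grid windows. On even-numbered autosomes 77.3% of TAD anchors passed that limit. Within 100 bp of the summit, 1.69% of members (99 of 5859; 1.39 to 2.05) passed it, beside 55.2% of intergenic co-bound peaks and 1.35% of gene-body CNC peaks. The share in members was 1.69 times that of intergenic DNA taken at regular steps, a difference of 0.690 percentage points (0.388 to 1.05), but with windows of 45% to 55% GC only it was 1.49% against 1.42% (difference −0.302 to 0.550). Since the members were selected for lacking a CTCF peak, this is a description and not a test.

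Members were much weaker Rad21 peaks than those with CTCF. The Rad21 score (10 times the −log10 of the q-value, cut to a whole number) of members ran from 19 to 687 with a median of 66 and quartiles of 47 and 101, while intergenic co-bound peaks had a median of 319 and reached 15041. A member exceeded a co-bound peak of the same genomic position with a probability of 0.131 (AUC, where 0.5 means no difference), and was the weaker set on 19 of 19 autosomes. In fragments piled up at the summit, members had a median of 28 (15 to 145) and co-bound peaks of 63. Members were also narrower, with a median width of 303 bp (198 to 1380) beside 438 bp. These values describe the lists, because CTCF overlap was part of the choice.

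**Figure D1:**
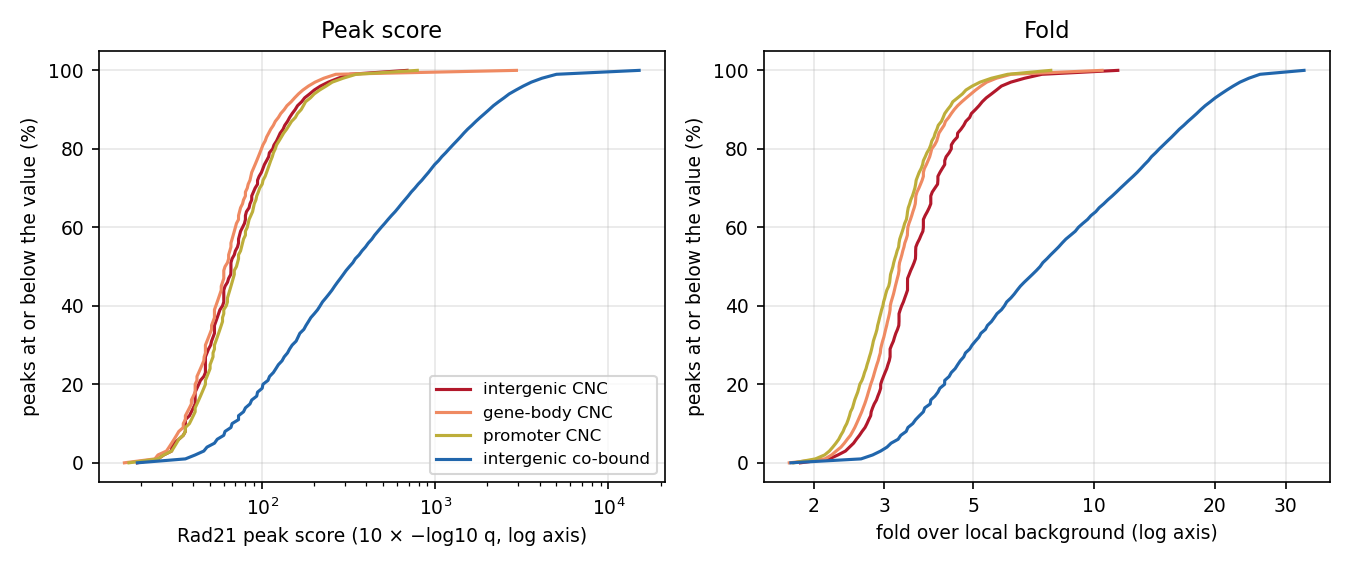
Share of peaks (y axis, %) at or below each Rad21 score (left) or fold over the local background (right), both on log axes, in 4 sets of autosomal Rad21 peaks; lines join percentiles. The 3 sets without CTCF run close together at scores with medians of 61 to 71, far left of the intergenic co-bound peaks with a median of 319, and on the fold axis the intergenic members (median 3.52) lie to the right of the other CNC sets.

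How members compared with other CNC peaks depended on the measure of strength. Their median score of 66 compared with 61 in gene bodies (Kolmogorov-Smirnov test, n = 5859 and 7387 peaks, D = 0.0660, AUC 0.542, adjusted p = 1.02e-12), and the members were higher on 19 of 19 autosomes. Fold over local background was higher in members (median 3.52 against 3.26, AUC 0.594), but the fragments at the summit were fewer (28 against 29, n = 5859 and 7387 peaks, AUC 0.466, p = 3.63e-11). The local background recovered from the lists was lower around members (median 6.395 fragments against 7.72), and 28.9% of members stood at the lowest, genome-wide background of the list, beside 13.97% of gene-body CNC peaks. The part of the background in the score difference was not tested.

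Against promoter CNC peaks the members had a lower score (median 66 against 71, n = 5859 and 1872 peaks, D = 0.0570, AUC 0.470, adjusted p = 0.000191) and were lower on 13 of 19 autosomes, but had a higher fold (3.52 against 3.15, AUC 0.639). The fragments at the summit were fewer in members (28 against 37, AUC 0.322), on 19 of 19 autosomes. Among peaks with no CTCF peak within 1 kb (n = 4513 members), the difference in score missed the threshold (AUC 0.484, p = 0.129). Promoter CNC peaks had the highest local background of the 3 CNC sets, with a median of 11.03 fragments.

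Members were slightly wider than gene-body CNC peaks, with medians of 303 and 283 bp (n = 5859 and 7387 peaks, D = 0.0682, AUC 0.541, adjusted p = 2.04e-13), on 18 of 19 autosomes. GC content within 100 bp of the summit was lower in members, at a median of 50.2% against 51.2% (n = 5859 and 7387 peaks, D = 0.0917, AUC 0.447, adjusted p = 5.97e-24). Both sets stood far above intergenic DNA at regular steps, where the median was 40.8%. CpG dinucleotides numbered 3.02 per window on average in members, 3.22 in gene-body CNC, 9.17 in promoter CNC and 1.46 on the grid. Members thus resembled CNC peaks in genes in composition and not the CpG-rich promoter set. These p-values rest on many neighbouring peaks that are not replicates, so the sizes, all within 0.06 of an AUC of 0.5, carry the comparison.

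The 10 strongest members whose local background was at most 10 fragments had scores from 397 to 687. The top peak, chr10:110766240-110766924, reached 105 fragments over a background of 9.23, a fold of 10.4. The next, chr3:14755757-14756240, lay 22469 bp downstream of the start of Car1, which encodes a carbonic anhydrase, with a score of 510 and a fold of 11.5. A peak at chr6:100009695-100010324 scored 486, its nearest start being that of Rybp, a Polycomb subunit, 227442 bp away. The peak at chr15:77353742-77354052 scored 474 near Apol7c with the nearest CTCF summit 39937 bp away, and its fold of 11.1 rested on 67 fragments over a background of 5.13.

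Mat2a, which encodes the enzyme that makes S-adenosylmethionine, was nearest to chr6:72410394-72410903 at 21026 bp, with a score of 466. The remaining 5 were nearest to 2310022B05Rik (454), Rreb1 (445), Dhx15 (415), 4922501L14Rik (397) and Ndrg1 (397), at 5757 to 254989 bp. A local background over 10 fragments was found at 1269 members (21.7%). The highest was 51.4, at chr7:35907674-35908201 near Cebpa, where 113 fragments gave a fold of only 2.18 and a score of 110.

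At the edges of the rule the values changed little on the position side. Members up to 500 bp beyond the limit of 1 kb (68) had a median score of 67, and promoter CNC peaks outside genes over 500 bp from a start (125) of 73. On the CTCF side, 164 members ended within 100 bp of a CTCF peak (median score 60.5), and 92 intergenic co-bound peaks shared only 1 to 50 bp with CTCF (median score 52). Both were far below the median of 323 for intergenic peaks that shared more than 50 bp.

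Members were spread over all 19 autosomes at 4.10 per Mb of intergenic sequence, from 2.70 per Mb on chromosome 14 to 6.83 on chromosome 19. Of all intergenic Rad21 peaks, the members were 23.5%, with a range from 19.7% on chromosome 11 to 27.5% on chromosome 13. Their median score was between 60 and 68.5 on every autosome.

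CTCF was rarely far away. The nearest CTCF summit lay at a median of 4961 bp from a member, beside 3886 bp from a gene-body CNC peak (n = 5859 and 7387 peaks, D = 0.0939, AUC 0.550, adjusted p = 8.27e-25), and farther for members on 18 of 19 autosomes. For intergenic sequence at regular steps the median was 34974 bp. A CTCF summit lay within 1 kb of 17.0% of members and of 3.78% of that sequence, and within 10 kb of 69.6% and 26.6%. Only 5.36% of members (314) were over 50 kb from CTCF. By this distance the median score was 64 within 1 kb, 69 at 1 to 2.5 kb and 66 over 50 kb. The median number of fragments at the summit was 31 within 1 kb, 35 at 1 to 2.5 kb and 23 over 50 kb.

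By the authors' classes, the CTCF peak nearest to a member was less often an anchor than CTCF peaks at large. It was a TAD anchor for 3.38% of members (2.95 to 3.87), beside 7.63% of all autosomal CTCF peaks. It was an anchor of a predicted loop within a TAD for 8.29%, beside 11.97%. For 43.2% of members it was a CTCF peak that the class list does not hold, beside 31.7% of all autosomal CTCF peaks. Gene-body CNC peaks had shares of 2.95%, 6.34% and 45.3% for the same classes.

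Members also lay nearer to gene starts than intergenic DNA does, although every start within 1 kb was excluded. The median distance to a protein-coding start was 37033 bp for members, 27461 bp for intergenic co-bound peaks and 101977 bp for intergenic sequence. A start within 10 kb was found for 17.5% of members, 23.3% of co-bound peaks and 10.9% of the sequence. The farthest member was 1925814 bp from any start. Of the members, 65.7% lay upstream of the nearest start, beside 63.1% of co-bound peaks and 59.1% of intergenic sequence. The score was about the same at all distances, with medians between 61 and 71.

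Sequence under the members held several, but not all, words of liver transcription factors more often than intergenic DNA. The word for C/EBP proteins, basic leucine zipper factors of hepatocytes and fat cells (TTGCNNAA), was found within 100 bp of the summit in 14.05% of members (823; 13.2 to 14.96), beside 9.80% of 285988 intergenic windows of the same length taken every 5000 bp. The HNF4 word (CAAAGNNCA), for the nuclear receptor HNF4α, was found in 10.8% against 5.01%. The FOXA word (TGTTTAC), for forkhead pioneer factors, was found in 5.07% against 2.98%, and the HNF1 word (GTTAATNAT) in 1.16% against 0.751%. All 4 differences had 95% intervals above 0 (the nearest to 0 was 0.163 to 0.719 percentage points, for HNF1). Words for GATA factors (10.53% against 13.8%) and STAT5 (6.76% against 7.87%) were less frequent in members, a direction that turned at matched GC content, as given below. All words were matched on both strands, and 1 base can belong to matches of several words. The windows were not limited to sequence where reads have a single position, as the peaks were, and the effect of this was not tested.

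Intergenic co-bound peaks held these words less often than the members did, at 9.46% for C/EBP, 6.52% for HNF4, 2.89% for FOXA and 0.467% for HNF1. The C/EBP word was more frequent in members on 18 of 19 autosomes and the HNF4 and FOXA words on 19 of 19. For ONECUT factors (ATCAATA) the share was 4.06% in members, 1.90% in co-bound peaks and 3.49% on the grid. The word of ROR and REV-ERB clock receptors (TAGGTCA) was found in 2.56%, 1.88% and 1.996%. At least 1 of these 6 words was present in 32.4% of members, beside 28.6% of gene-body CNC, 15.6% of promoter CNC, 20.9% of intergenic co-bound peaks and 21.9% of the grid.

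**Figure D2:**
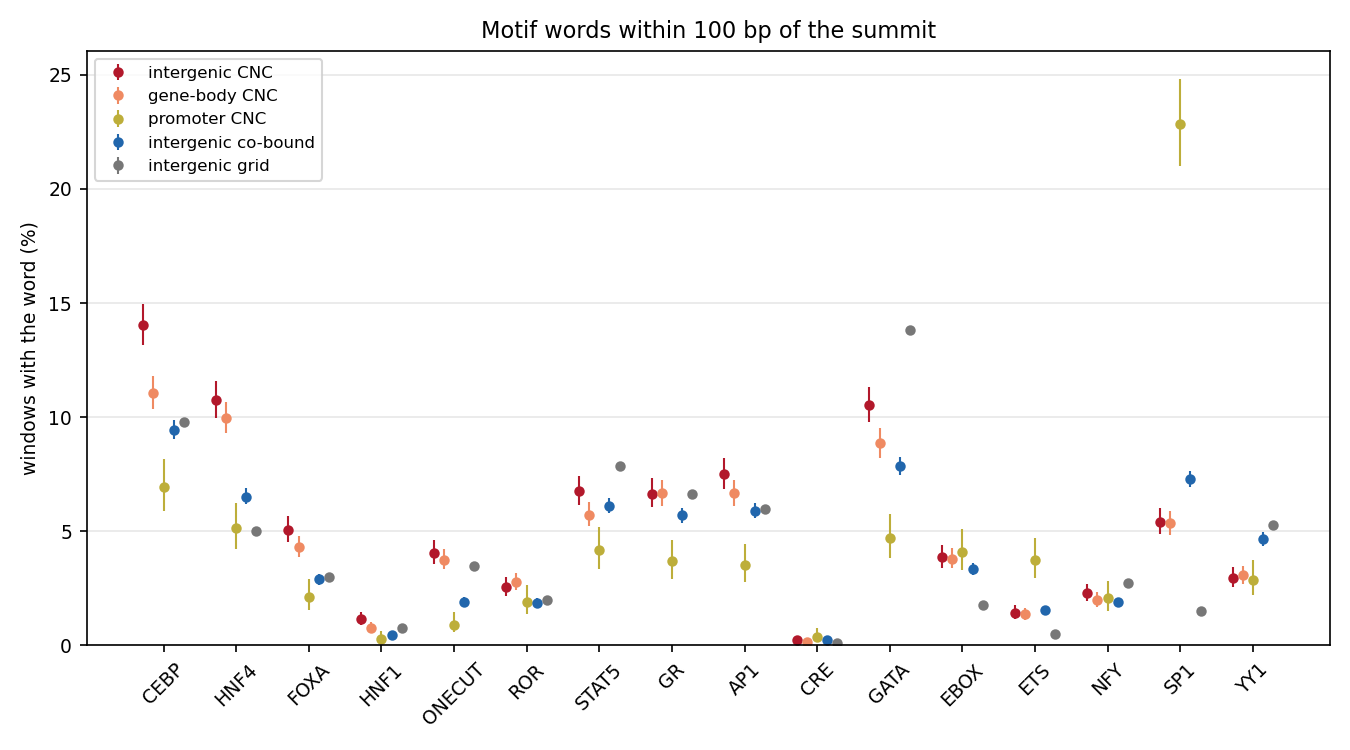
Share of windows of 100 bp on each side of the summit (y axis, %) that hold each of 16 motif words (x axis), in members, the other CNC sets, intergenic co-bound peaks and intergenic windows at regular steps; points are shares and bars 95% Wilson intervals. Members are highest of the 5 sets for the C/EBP (14.05%) and HNF4 (10.8%) words, and promoter CNC peaks stand out for the SP1 word (22.9%).

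Members and gene-body CNC peaks had like shares of most words. The C/EBP word was 2.97 percentage points more frequent in members (14.05% against 11.1%, Newcombe 95% interval 1.84 to 4.12). The words for GATA factors (AGATAA, 10.53% against 8.85%), STAT5 (TTCNNNGAA, 6.76% against 5.73%), FOXA (5.07% against 4.32%) and HNF1 (1.16% against 0.785%) also had intervals above 0. With windows of 45% to 55% GC only, the C/EBP difference was 2.15 (0.670 to 3.64) and the other 4 intervals included 0. For the HNF4 word the interval held 0 (10.8% against 9.96%, −0.252 to 1.84), but not with 50 bp on each side of the summit (0.0314 to 1.56). For the ONECUT word it also held 0 (−0.362 to 0.974).

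The SP1 word (GGGCGG), a GC box of CpG-rich promoters, was in 5.43% of members, 5.35% of gene-body CNC, 22.9% of promoter CNC and 1.498% of grid windows. The ETS word (CCGGAAG) was in 1.42% of members and 3.74% of promoter CNC. The AP-1 word (TGANTCA) was in 7.51%, the glucocorticoid receptor word (ACANNNTGT) in 6.66%, the E-box (CACGTG) in 3.87%, the NF-Y word (CCAATCA) in 2.29%, the YY1 word (AAGATGG) in 2.95% and the cAMP response element (TGACGTCA) in 0.239% of members. In gene-body CNC the same words were in 6.67%, 6.66%, 3.804%, 1.99%, 3.07% and 0.149%, and the 6 intervals of the differences held 0. With a score of at least 50 those for AP-1 (0.0214 to 2.17) and NF-Y (0.0388 to 1.25) did not. Against the grid the E-box was 2.17-fold as frequent and the YY1 word 0.559-fold.

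Members were richer in G and C than the grid, and some of these comparisons changed when that was matched. Among windows of 45% to 55% GC (3289 members and 80227 grid windows), the C/EBP word was in 13.1% of members and 7.21% of the grid, the HNF4 word in 10.8% and 4.98%, the FOXA word in 4.90% and 2.195%, and the ONECUT word in 3.25% and 1.38%. The GATA word, less frequent in members than on the whole grid (10.53% against 13.8%), was more frequent there (9.97% against 8.06%). For STAT5 the direction likewise turned, from 6.76% against 7.87% to 6.90% against 5.56%. The SP1 word was 3.62-fold as frequent in members as on the whole grid and 1.58-fold there (4.44% against 2.82%), and the ETS word 2.88-fold and 1.78-fold. The HNF1 word was 1.55-fold and 3.79-fold as frequent, and the rare cAMP response element 2.31-fold and 0.944-fold, where the interval of its difference at matched GC held 0 (-0.115 to 0.206 percentage points).

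Most words were denser at member summits than in the flanks. Within 25 bp of the summit the HNF4 word occurred 0.633 times per kb in members and at 300 to 400 bp 0.277 times per kb, a ratio of 2.28. The ratio was 1.68 in gene-body CNC and 1.40 in intergenic co-bound peaks. For C/EBP it was 1.47, 1.07 and 1.10, and for FOXA 1.51, 1.40 and 0.868. In members the ratio was 2.13 for ETS, 1.68 for HNF1, 1.53 for SP1, 1.52 for ROR and 1.40 for the E-box. The rare cAMP response element, with only 0.0100 matches per kb within 25 bp of the summit, had a ratio of 1.32. The ratio was 1.29 for ONECUT, 1.197 for AP-1 and 1.05 for NF-Y. It was 1.01 for STAT5, 0.932 for the glucocorticoid receptor, 0.806 for GATA and 0.596 for YY1. The C/EBP profile of members was highest in the bin at −75 bp, at 0.963 per kb, beside 0.785 at 75 bp on the other side and 0.608 at the summit itself. The CTCF matrix had 5.97 matches per kb at co-bound summits and 0.137 at those of members, although there too it was 2.08 times the level of the flanks.

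**Figure D3:**
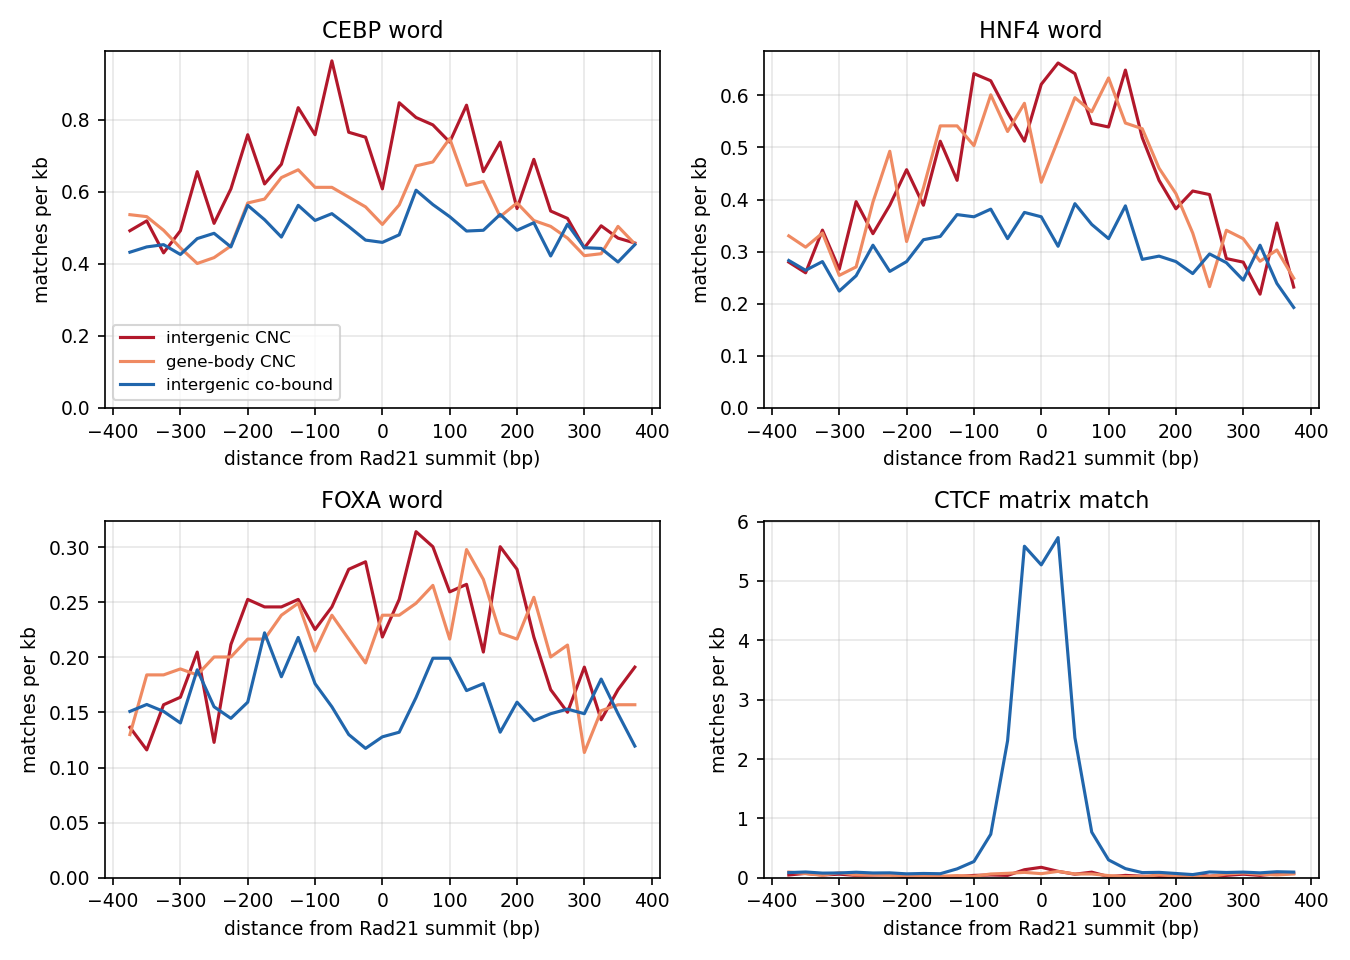
Matches per kb (y axis) of the C/EBP, HNF4 and FOXA words and of the CTCF matrix in bins of 25 bp against the distance from the Rad21 summit (x axis, bp), for members, gene-body CNC and intergenic co-bound peaks. Words for C/EBP and HNF4 form a broad rise around member summits, up to 0.963 and 0.662 per kb, while the CTCF matrix forms a sharp peak of up to 5.73 per kb at co-bound summits.

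Words for HNF4 and SP1 were more frequent in strong members than in weak ones. The HNF4 word was in 12.3% of the members at or above the upper quartile (score 101 or more, 1498 peaks) and in 8.73% of those at or below the lower quartile (47 or less, 1592; difference 3.55 percentage points, 1.39 to 5.73). The SP1 word was in 6.68% and 4.02% (1.07 to 4.28), and the C/EBP word in 14.8% and 13.5% (−1.14 to 3.78). Intervals for the other 14 motifs, the CTCF matrix included, also held 0. Members with none, 1 or 2 of the 6 hepatocyte words had a median score of 66 in each case, and the 22 members with 3 or more had 72.5. The pair of C/EBP and HNF4 words occurred in 100 members (1.71%), beside 1.51% had the words been independent and 0.514% of grid windows. Of the 15 pairs of these 6 words, 9 were above the share expected from independent words and 6 below it, such as C/EBP with HNF1 (0.0341% against 0.163%).

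Members whose edge was within 1 kb of the edge of a CTCF peak (1346) differed in some words from the 4513 without. Words for AP-1 (5.72% against 8.04%), C/EBP (12.3% against 14.6%), ONECUT (2.67% against 4.48%) and FOXA (3.94% against 5.41%) were less frequent near CTCF, each with an interval below 0. Those for ETS (2.30% against 1.15%) and SP1 (6.61% against 5.07%) were more frequent, with intervals above 0. The CTCF matrix itself was matched in 0.817% of members near a CTCF peak and in 1.95% of the others.

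Among the 5881 8-base words found in at least 1% of the members on odd-numbered autosomes, those most enriched over the grid were mostly rich in G and C, as members are beside the grid. On odd-numbered autosomes, where the 10 words with the highest ratio were chosen, CCTGCCAG led with 3.997% of members and 4.90 times the grid share, followed by CTGGCAGC (4.88 times) and GAGCCAGC (4.62 times). On the remaining, even-numbered autosomes CCTGCCAG was in 3.29% of 2707 members, 4.46 times the grid share, CTGGCAGC in 3.14% (5.18 times) and GAGCCAGC in 2.29% (3.54 times). The other 7 words, GAGCTGGC, CTGCCAGC, GCTGGGCC, GCCCAGCC, GCCAGGCC, CAGGCTGC and CAAAGTCC, had ratios of 3.23 to 5.55 there. Gene-body CNC peaks held CCTGCCAG in 3.19% and co-bound peaks in 2.33%. CAAAGTCC shares its opening 5 letters with the HNF4 word and was in 2.66% of members, 2.45% of gene-body CNC and 1.46% of co-bound peaks on even-numbered autosomes. None of the words searched and no CTCF match was found in 2363 members (40.3%).

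Most lists of hepatocyte genes had more members near them than genes at large. The lists were chosen with earlier results of these data known, so their rates are a description and not a test. Each member was assigned to the protein-coding gene with the nearest start, which need not be its target. Counts were set against the intergenic sequence nearest to the same genes. Over all 21281 genes the rate was 4.10 members per Mb (exact Poisson interval 3.99 to 4.20), and 2886 genes (13.6%) had at least 1 member. Genes for proteins that hepatocytes secrete into plasma had 33.7 per Mb (25.5 to 43.6; 57 members at 22 of 50 genes), 8.22 times the rate of all genes. Hepatocyte transcription factors had 24.1 per Mb (116 members at 18 of 29 genes), and drug and steroid metabolism genes, mostly cytochrome P450, 22.9 per Mb (74 members at 34 of 74 genes).

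Acute phase genes had 19.02 per Mb, enzymes of the urea cycle and of amino acid and glucose synthesis 18.1, growth hormone signalling 16.7, lipid and cholesterol metabolism 15.8 and circadian clock genes 10.7. Complement and coagulation genes had 7.38 per Mb and metabolic nuclear receptors 6.49, nearer to all genes. Lists for other cells had low or uncertain rates, with 1.28 per Mb for neurons (0.515 to 2.64), 3.05 for endothelial and stellate cells (1.40 to 5.79), 7.38 for muscle (3.54 to 13.6) and 8.52 for Kupffer and other immune cells (2.77 to 19.9), which rested on 5 members. Without Itgam the Kupffer and immune list had 3.58 per Mb, and without Neb the muscle list had 4.61. Cholangiocyte genes had 14.2 per Mb, of whose 17 members 13 were nearest to Sox9, and 6.32 without that gene. Without Bhlhe40 the clock list had 4.28 per Mb. Rates of the hepatocyte and growth hormone lists also moved without the gene with the most members. They fell to 13.5 for acute phase (Saa1), and to 21.7 for transcription factors and 12.8 for growth hormone signalling (Bcl6). They fell to 5.92 for complement (C4b), 5.24 for nuclear receptors (Ppara) and 22.7 for drug metabolism (Cyp7b1). They rose to 40.3 for secreted proteins (Apob), 19.2 for the urea cycle list (Kynu) and 17.0 for lipids (Gpam). Lists share some genes (Bcl6 and Cyp7b1 stand in the growth hormone list and in another), and neighbouring members are not independent, so these intervals cover counting error only.

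The ratios to all genes were mostly lower for peaks with CTCF, without a test of the difference. Intergenic co-bound peaks numbered 13.3 per Mb over all genes and 36.1 near secreted proteins, 2.70 times as many, beside 8.22 times for members. For drug and steroid metabolism the ratio was 1.39 for co-bound peaks and 5.58 for members. For complement and coagulation it was 1.91 and 1.80, and for metabolic nuclear receptors 1.05 and 1.58. The share of intergenic Rad21 peaks without CTCF was accordingly 23.5% over all genes (23.0 to 24.0), 55.2% near drug and steroid metabolism genes (46.8 to 63.4), 48.3% near secreted proteins (39.5 to 57.2), 47.9% near hepatocyte transcription factors (41.7 to 54.2) and 47.5% near growth hormone signalling genes (38.8 to 56.4). For complement and coagulation it was 22.5% (12.3 to 37.5) and for neurons 17.9% (8.98 to 32.7).

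**Figure D4:**
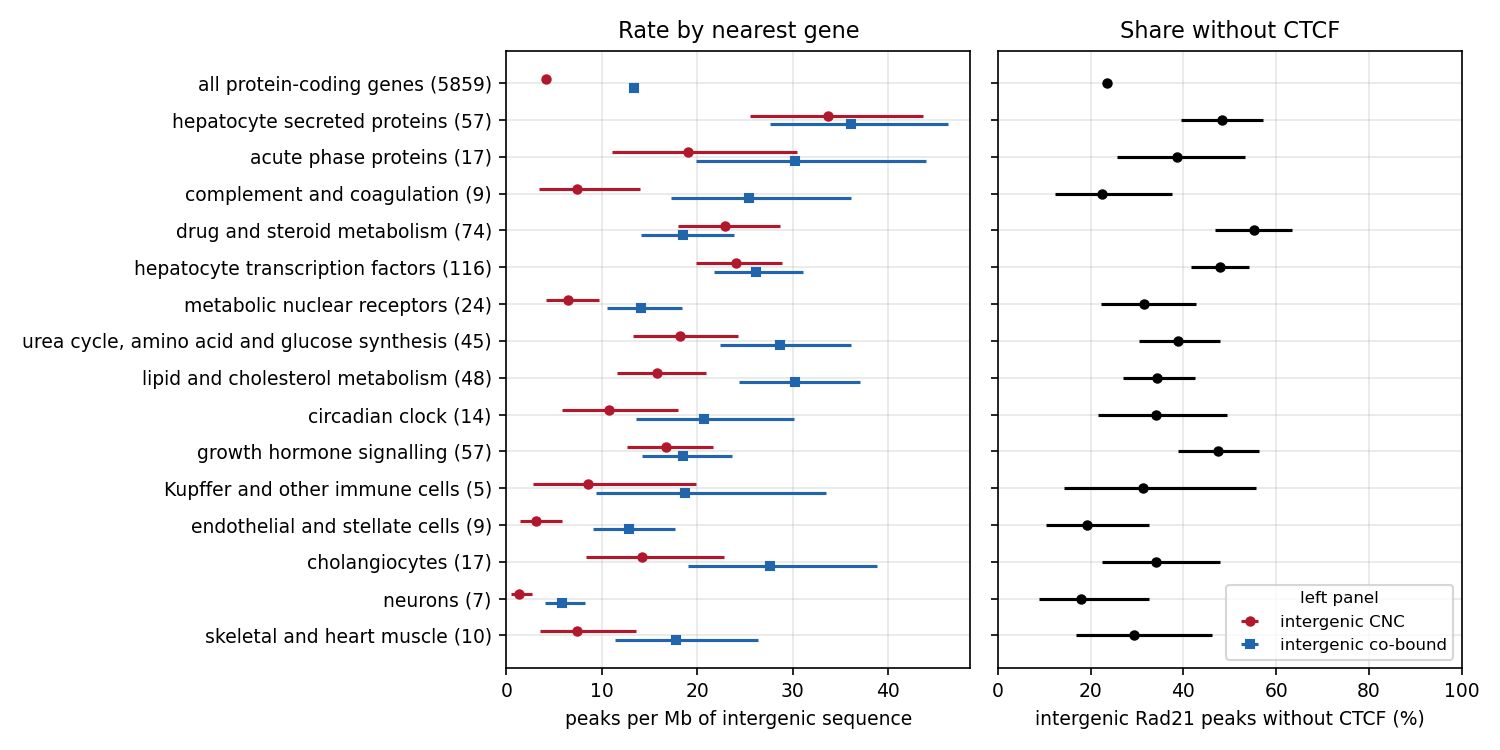
Left, intergenic Rad21 peaks per Mb of intergenic sequence nearest to the genes of each list, with exact Poisson 95% intervals, for members and co-bound peaks; right, share of intergenic Rad21 peaks without CTCF (%), with Wilson 95% intervals; member counts stand in brackets. Most hepatocyte lists lie far right of all genes for members (up to 33.7 against 4.10 per Mb), and the share without CTCF reaches 55.2% against 23.5%.

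Among the listed genes, transcription factors of the hepatocyte had the most members, and 10 of the 29 had at least 5. Bcl6, a transcriptional repressor, had 16, all upstream of its start at 5.26 to 195 kb, with scores from 39 to 282. Onecut1 had 15 (scores 32 to 157), of which 14 lay 60.1 to 339 kb upstream and 1 lay 45.3 kb downstream of the start. Foxa2 had 11, all downstream of its start, at 7.22 to 169 kb (39 to 240). Gata6 followed with 10, Cebpb and Nr5a2 with 9 each, Cebpa with 8, Tbx3 with 7, Prox1 with 6 and Hhex with 5. The highest score among these was 374, at Cebpa.

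Among metabolic and secreted products, Cyp7b1, a steroid hydroxylase of bile acid synthesis, had 11 members, all upstream at 11.2 to 382 kb, with a high median score of 124. Apob, the structural protein of lipoproteins, had 10 (6.64 to 157 kb, scores 30 to 156), and Cyp3a11, a drug-metabolizing P450, had 7 within 38.7 kb upstream (30 to 94) with no co-bound peak in the same sequence. Cyp26a1, which breaks down retinoic acid, had 5. The vitamin D-binding protein gene Gc had 6 and Ahsg, which encodes fetuin-A, had 5. Saa1, an acute phase protein, had 5 between 3.01 and 5.04 kb from its start, where it shares the surroundings of near-identical Saa genes that reads with a unique position may cover unevenly.

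Enzymes and regulators with at least 5 were Kynu (6) and Cps1 (5), of tryptophan breakdown and the urea cycle, Gpam and Insig1 (5 each), of triglyceride synthesis and sterol sensing, and the fatty acid receptor gene Ppara (5). The growth hormone receptor gene Ghr had 5, all upstream (scores 41 to 313), and the clock repressor gene Bhlhe40 had 9 (45 to 339). Sox9, of bile duct cells, had 13, at 34.1 to 360 kb.

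Among the 20 genes with the most members, Cited2, a coregulator that binds CBP and p300, had 21 members, all upstream, at 39.1 to 423 kb, with 8 co-bound peaks in the same sequence. Maf, Ppap2b, Tbl1xr1, Rybp, Gm9747 and Bcl6 had 16 each. Klf12, Myc and Onecut1 had 15, the ERK phosphatase gene Dusp6 14, and Phlda1, Sox9 and Gadd45g 13. Rreb1, Lpp, Ppp1r3c (a glycogen-targeting subunit of protein phosphatase 1), Dynlrb2, Serp2 and AB041803 had 12. Per Mb of nearest sequence, Dusp6 had 101 members, Ppp1r3c 89.6 and Bcl6 77.7, while Tbl1xr1, in a gene-poor region, had 8.69. The 49 genes with at least 10 members took up 10.1% of members and 1.73% of the intergenic sequence. They were chosen by their count of members, so a high share was built in.

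At Alb, the albumin gene (chr5:90889915-90905629, + strand), 5 members lay upstream. They stood at 46.3, 29.7, 28.8, 10.8 and 3.46 kb from the start, with scores of 80, 100, 31, 73 and 88 and with 29, 32, 20, 32 and 33 fragments at the summit. The nearest CTCF summit was at 0.821 to 9.57 kb from these members. The lowest score was thus in the middle of the row, and the member nearest to the start was among the higher.

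Cebpa (chr7:35904312-35906945, + strand) had 8 members within 30.9 kb. Upstream they scored 43 at 28.6 kb and 135 at 11.5 kb. Downstream they scored 110 at 3.74 kb, 171 at 4.32 kb, 73 at 9.90 kb, 188 at 15.5 kb, 374 at 24.8 kb and 281 at 30.9 kb. The downstream members had 52 to 121 fragments, well above the median of 28 for all members, in the region with the highest local background of all members.

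Members of Bcl6 and Cyp7b1, both nearest genes in the growth hormone list, lay far from CTCF in part. The Bcl6 peak with the highest score (282, chr16:24120877-24121422) lay 132 kb upstream, 29.8 kb from a CTCF summit, and 6 members between 72.8 and 95.3 kb formed a run without any CTCF or co-bound peak between them. At Cyp7b1, 6 members from 183 to 220 kb upstream scored 73, 49, 144, 116, 150 and 100, and each was 161 to 178 kb from CTCF. The 21 members of Cited2 scored 33 to 249, the strongest at 39.1 kb, and 6 of them at 147 to 171 kb were 70.3 to 84.2 kb from CTCF.

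**Figure D5:**
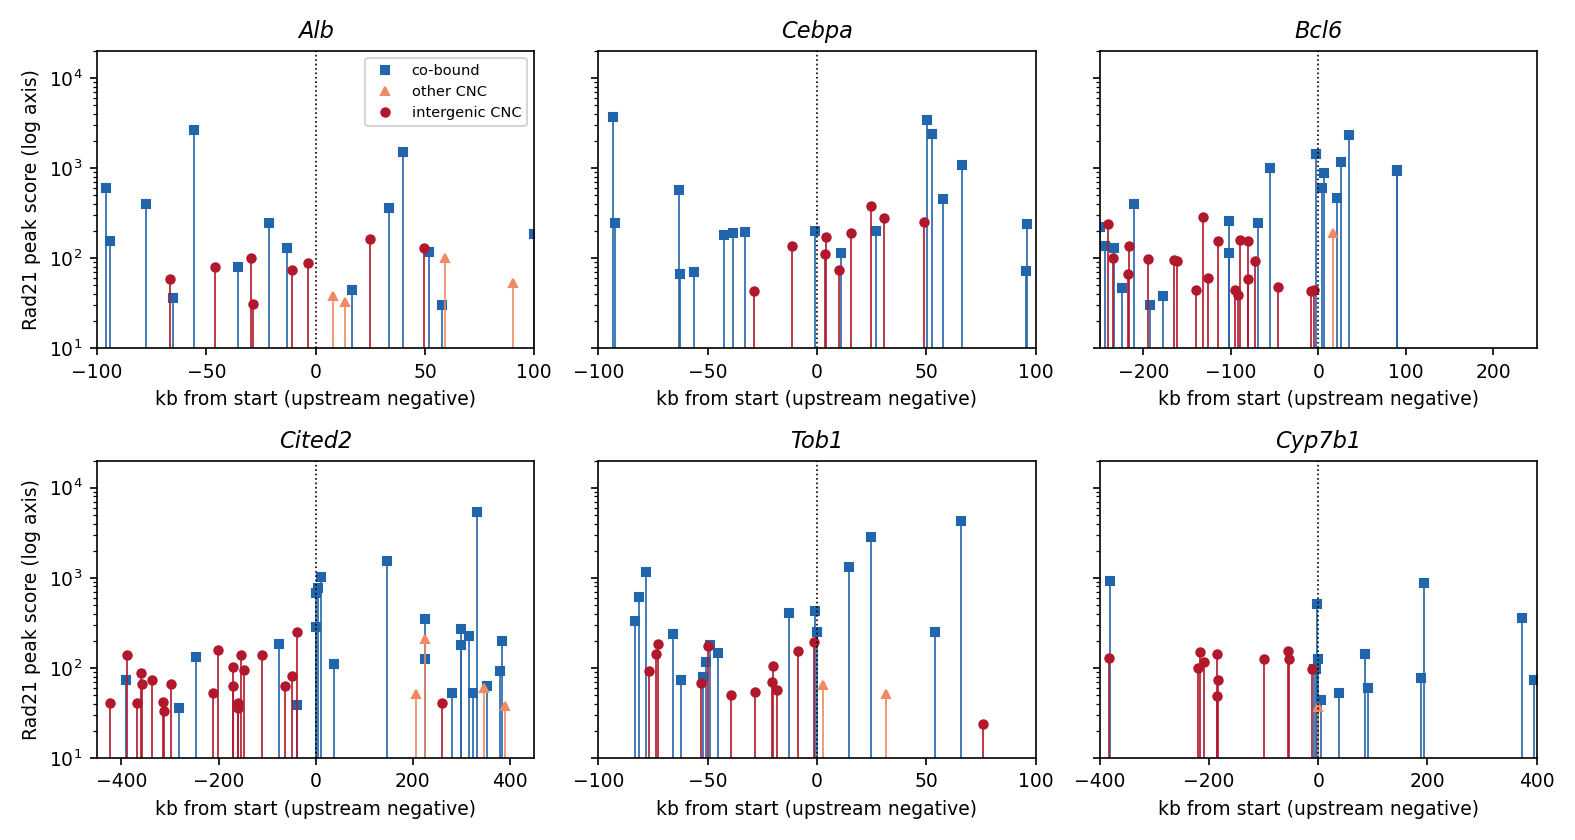
Rad21 peak score (y axis, log scale) against the distance of the summit from the start of 6 genes (x axis, kb, upstream negative) for members, other CNC peaks and co-bound peaks in windows of 100 to 450 kb on each side; a member in the window may be nearest to another gene. Rows of members with scores of mostly 30 to 300 stand upstream of Bcl6, Cited2 and Cyp7b1, and co-bound peaks reach higher scores in all 6 windows.

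Most members stood alone, and some formed runs. With members joined where neighbouring summits were at most 12.5 kb apart, 55.7% stood alone, 19.2% were in runs of 3 or more, and 40 runs held 5 or more. Runs of 3 or more numbered 321, but 98 when joined at 5000 bp and 152 among members with a score of at least 50. Of gene-body CNC peaks 54.1% stood alone and 21.1% were in runs of 3 or more, and of intergenic co-bound peaks 51.6% and 21.4%. Such shares depend on the density of sites, which was 4.10 per Mb for members and 13.3 for co-bound peaks, so they do not compare the degree of grouping. Another member lay within 1 kb of 12.1% of members, and a co-bound peak within 1 kb of 11.4%.

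The run with the most members, 9 over 51.7 kb (chr11:94019823-94071485), lay 1.41 to 52.9 kb upstream of Tob1, an antiproliferative gene, with scores of 50 to 195 and 5 co-bound peaks between them. Next came 8 members over 27.0 kb, 74.8 to 101 kb downstream of the start of Phlda1 (56 to 215). Of the 3 runs of 7, that nearest to Ptpn1, a tyrosine phosphatase gene, had scores of 57 to 444 (chr2:167659968-167682776), that nearest to Gm9747 of 32 to 272 (chr1:82155012-82185625), and that nearest to Foxa2 of 39 to 176 (chr2:147770495-147819392). All 5 runs had 2 to 5 co-bound peaks between their members, while a run of 6 at each of Bcl6, Cited2 and Atxn2 had no CTCF peak between its members. The nearest start need not be the target of a run. The paper places Ptpn1 nearer than Cebpb to a cluster of strong enhancers, but across a TAD border, and predicts restricted contact with Ptpn1. Whether the run nearest to Ptpn1 belongs to that cluster was not tested.

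Some members lay at genes that do not code for protein, which the rule did not use. A start of such a gene lay within 1 kb of 123 members, at 111 distinct genes. Of these members, 33 were at 30 lincRNA genes and 11 at 9 miRNA genes. No other set was compared for these starts. Of all members, 6.98% (409) lay inside any such gene, beside 5.93% (1132) of intergenic co-bound peaks. The strongest members near such a start were 252 bp from the pseudogene BC003965 (score 364) and 720 bp from Mir7b (score 357). Further members were near Mir130a (973 bp, score 94) and Mir802 (827 bp, score 30), and 3 were within 1 kb of a miRNA annotated beside Klf3 (scores 154, 123 and 73). These genes were named after their values were seen.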

How the data were processed

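Rad21 and CTCF ChIP-seq of male mouse liver was analysed from 3 deposited tables with no header. The study's methods say that reads of all livers were joined for each factor, aligned to mm9 by Bowtie2 and limited to those with a single position, after which MACS2 called peaks and the authors dropped peaks in blacklisted regions and those that PCR duplicates alone had made. For each peak they deposited a score, a fold (a ratio of summit fragments to local background, each plus 1), the −log10 p-value and the −log10 q-value. The score equalled 10 times the −log10 q, cut to a whole number, at 99.98% of Rad21 peaks. The remaining table, deposited by the authors, held CTCF sites in 4 classes with a motif score. No input library shows in the columns. Without one, MACS2 takes the local background from the ChIP reads themselves, and strong neighbours raise it. Depth per library is not given in these lists.

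Fragments at the summit and local background were recovered together from fold and −log10 p, and the fragments were whole within 0.02 at 100% of members. Genes came from GENCODE vM1 (NCBIM37; all 22 chromosome names matched). Windows every 5000 bp of intergenic sequence formed the grid, and territory was measured every 500 bp. Neither was filtered for unique read positions or blacklisted regions, as the peaks were. The effect on shares, GC content, distances and rates was not tested. The 5 comparisons used the two-sided Kolmogorov-Smirnov test (asymptotic) with Benjamini-Hochberg adjustment. Shares carry 95% Wilson, differences Newcombe and rates exact Poisson intervals. Functions were tested on simulated data. Named were the 10 strongest members with a background of at most 10 fragments, 5 runs with the most members, genes of the 15 lists with at least 5 members, and the 20 genes with the most. Members and lists were chosen with earlier results of these data known. Tools were samtools 1.23.1, pysam 0.24.0, Matplotlib 3.10.9, SciPy 1.17.1, Python 3.11.15, pandas 2.3.3 and NumPy 2.4.6. Alternatives were the measure of strength, a score minimum, the CTCF overlap and distance, the genes and start limit, the window and the joining distance.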

Additional observations from a re-analysis of the deposited data

Results flagged for a closer look

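Outside the comparisons above, chromosome X held 91 intergenic Rad21 peaks without CTCF, a signal in peaks that the rule leaves out. They were 16.6% (13.7 to 19.9) of the intergenic Rad21 peaks of that chromosome, beside 23.5% on the autosomes, and had scores from 25 to 254 with a median of 68. All livers were male, and the part of the copy number of chromosome X in this lower share was not tested.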

How the results depend on the processing

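No paired analysis was possible because the lists are pooled over livers, so the replicate numbers of the labels have no values of their own, and no library could be left out. The number of members was between 4149 (score of at least 50) and 6147 (overlap counted from 50% of the shorter peak). The higher score against gene-body CNC reversed in fragments at the summit (AUC 0.466). Against promoter CNC the lower score reversed in fold (0.639) and missed the threshold without a CTCF peak within 1 kb (0.484) and with a score of at least 50 (0.492). The differences in width, GC content and distance to CTCF kept their direction and stayed past the threshold under every alternative run. Of 17 motif differences from gene-body CNC, 5 had intervals without 0, and 1 (C/EBP) had with 45% to 55% GC, a setting chosen after seeing the data. Differences near 0 turned sign for the glucocorticoid receptor (0.150), ETS (−0.0377) and YY1 words (0.0252) with 50 bp on each side, for the E-box with a score of at least 50 (−0.193) and for YY1 with that GC range (0.219). With a score of at least 50 or no CTCF peak within 1 kb, 13 of 15 lists were above the rate of all genes, as in the main analysis, but complement (1.13-fold) and Kupffer genes (1.17-fold) came close to it at a score of at least 50. FOXA, HNF1 and STAT5 lost their intervals without 0 under all 3 motif alternatives, and GATA with that GC range. Intervals without 0 were gained by HNF4 (0.789) and the CTCF matrix (0.351) with 50 bp on each side, and by AP-1 (1.09), NF-Y (0.633) and the CTCF matrix (0.576) with a score of at least 50. Runs of 3 or more members numbered 321, 98 when joined at 5000 bp and 152 with a score of at least 50; both use fewer sites or shorter gaps. Depth limits what a missing CTCF peak means, since weak CTCF binding below the caller's threshold is not listed. The reference is the C57BL/6J genome, while CD-1 mice differ from it. The cause of the other changes was not tested.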
